A study of Arabidopsis thaliana with 12 samples.

Results

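Relatives of the MADS-box gene SOC1 and of the root MADS-box gene ANR1, together with the root gene AGL12, were followed through RNA-seq libraries of Polycomb mutants. They were taken by gene identifier and are 10 of the 33602 genes of the deposited table, AGL12, AGL14, AGL16, AGL17, AGL19, AGL21, AGL42, AGL44 (ANR1), AGL71 and AGL72. Libraries came from whole Arabidopsis thaliana seedlings (ecotype Col-0) collected 10 days after germination on sugar-containing agar plates in long days, with 3 biological replicates for each of 4 genotypes. The clf28swn7 double mutant lacks the H3K27 methyltransferases CLF and SWN of Polycomb repressive complex 2 (PRC2). The emf1-2 mutant is affected in EMF1, a plant protein that works with PRC2. The ring1ab double mutant is affected in the PRC1 proteins RING1A and RING1B and is described in the study as a weak line that keeps some RING1 activity. WT is Col-0. In the description of the study, shoots of clf28swn7 and emf1-2 do not leave the embryonic state, roots of clf28swn7 are stunted and partly embryonic, roots of emf1-2 look like those of WT, and ring1ab forms leaves and flowers. A whole seedling of one genotype therefore holds other proportions of organs than one of another genotype, and in these bulk samples fewer cells of a type and less RNA per cell cannot be told apart.

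MADS-box proteins of the plant MIKC type are transcription factors that bind DNA as dimers and often act in larger complexes with each other. The SOC1 subfamily (AGL14, AGL19, AGL42, AGL71 and AGL72 beside SOC1 itself) is known mainly for promoting flowering, and AGL14, also called XAANTAL2, is known in addition from the root tip. The AGL17 subfamily (AGL16, AGL17, AGL21 and ANR1) is known for root expression and for the response of lateral roots to nitrate. AGL12, or XAANTAL1, stands alone in its subfamily and is known for cell proliferation and differentiation in the root tip and for promoting flowering. H3K27me3, the mark set by PRC2, covers many MADS-box genes in WT tissue in which they are silent. In the gene lists that the study drew up for WT seedlings, AGL12, AGL17 and ANR1 stand among the genes with both H2AK121ub and H3K27me3, and AGL19, AGL42 and AGL72 among those with H3K27me3 alone. AGL14, AGL16, AGL21 and AGL71 are not among the genes with H3K27me3 alone, and the parts of the other lists that would hold them were not used here.

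Expression was given in FPKM, the number of fragments of a gene scaled by its length and by the mapped fragments of the library, so that levels can be compared between genes. The lowest FPKM values of 8475 single-exon genes put the depth between 14200000 and 15000000 fragments in clf28swn7, 19000000 and 20300000 in emf1-2, 18900000 and 21700000 in ring1ab, and 18500000 and 20300000 in WT. CLF had 0.301 ± 0.183 FPKM in clf28swn7 against 8.9 ± 0.819 in WT, and RING1B had 0.554 ± 0.265 in ring1ab against 7.07 ± 0.923 in WT (SD, n = 3 each). SWN had 3.59 ± 0.224 FPKM in clf28swn7 and 16.4 ± 1.01 in WT. RING1A was at 188 ± 10.6 FPKM in the libraries labelled ring1ab and at 4.75 ± 0.784 in WT, and EMF1 was at 50.2 ± 6.25 in the libraries labelled emf1-2, 54.0 ± 1.75 in clf28swn7 and 8.05 ± 0.736 in WT. Neither transcript fell, so the level of EMF1 gives no check of the emf1-2 label, and a gene-level FPKM does not separate an intact transcript from a mutated one. Genotypes were compared with limma on log2(FPKM + 1). The call required a difference of 1 or more on that scale, in either direction, together with an unadjusted p under 0.05. It was made for the 21227 genes that reached 1 FPKM in 3 or more libraries, over which p-values were adjusted by Benjamini-Hochberg. Each log2 fold change below is a difference of mean log2(FPKM + 1), which understates changes of low genes, and is given with its limma standard error after the ± sign.

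The 10 members reached the FPKM minimum, but in different ways. AGL12, AGL14, AGL16, AGL21 and AGL42 reached it in the 3 WT libraries, whereas AGL17, AGL19, ANR1, AGL71 and AGL72 reached it only with the help of mutant libraries, so that calls among these 5 are partly set by the minimum. Their coding sequences shared between 60.0% and 80.7% of aligned bases over 45 pairs. AGL14 and AGL19 were the closest pair (80.7%), followed by AGL17 and AGL21 (80.4%) and by the neighbours AGL71 and AGL72 (75.2%). The longest stretch that any 2 members shared without a mismatch in their longest transcripts was 29 bases, and no other annotated gene overlapped a member.

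In clf28swn7, 5 members (AGL17, ANR1, AGL42, AGL71 and AGL72) were called higher than in WT, where 15.1% of all tested genes were, and 2 (AGL12 and AGL16) were called lower, where 12.3% of all were. In the libraries labelled emf1-2, 6 members (AGL14, AGL17, AGL19, AGL42, AGL71 and AGL72) were higher, against 13.7% of all tested genes, and the same pair AGL12 and AGL16 was lower, against 12.4%. The median log2 fold change of the members was 1.12 in clf28swn7 and 1.19 in emf1-2, beside 0.07 and 0.19 over all tested genes. Of the 5 members that reached the minimum in WT, AGL42 was higher and AGL12 and AGL16 were lower in clf28swn7, and AGL14 and AGL42 were higher and AGL12 and AGL16 lower in emf1-2. The libraries of the mutant and of WT did not overlap for 8 members in clf28swn7 and 9 in emf1-2, which is close to the 77.5% and 75.4% of all tested genes that were separated in the same way. Both mutants were set against the same 3 WT libraries.

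In the libraries labelled ring1ab, AGL19 was the only member called, as lower, where 1.03% of all tested genes were lower and 7.16% were higher. No member was called higher by limma there, and at an unadjusted p under 0.05 alone 1 member (AGL12) was higher and 3 (AGL19, AGL42 and ANR1) were lower. Of the 21227 tested genes, 9809 had such a p in one direction or the other, so the members did not stand out in this. The median log2 fold change of the members was -0.16 in ring1ab, beside 0.04 over all tested genes. For 4 members the ring1ab and WT libraries did not overlap, against 50.9% of all tested genes.

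**Figure D1:**
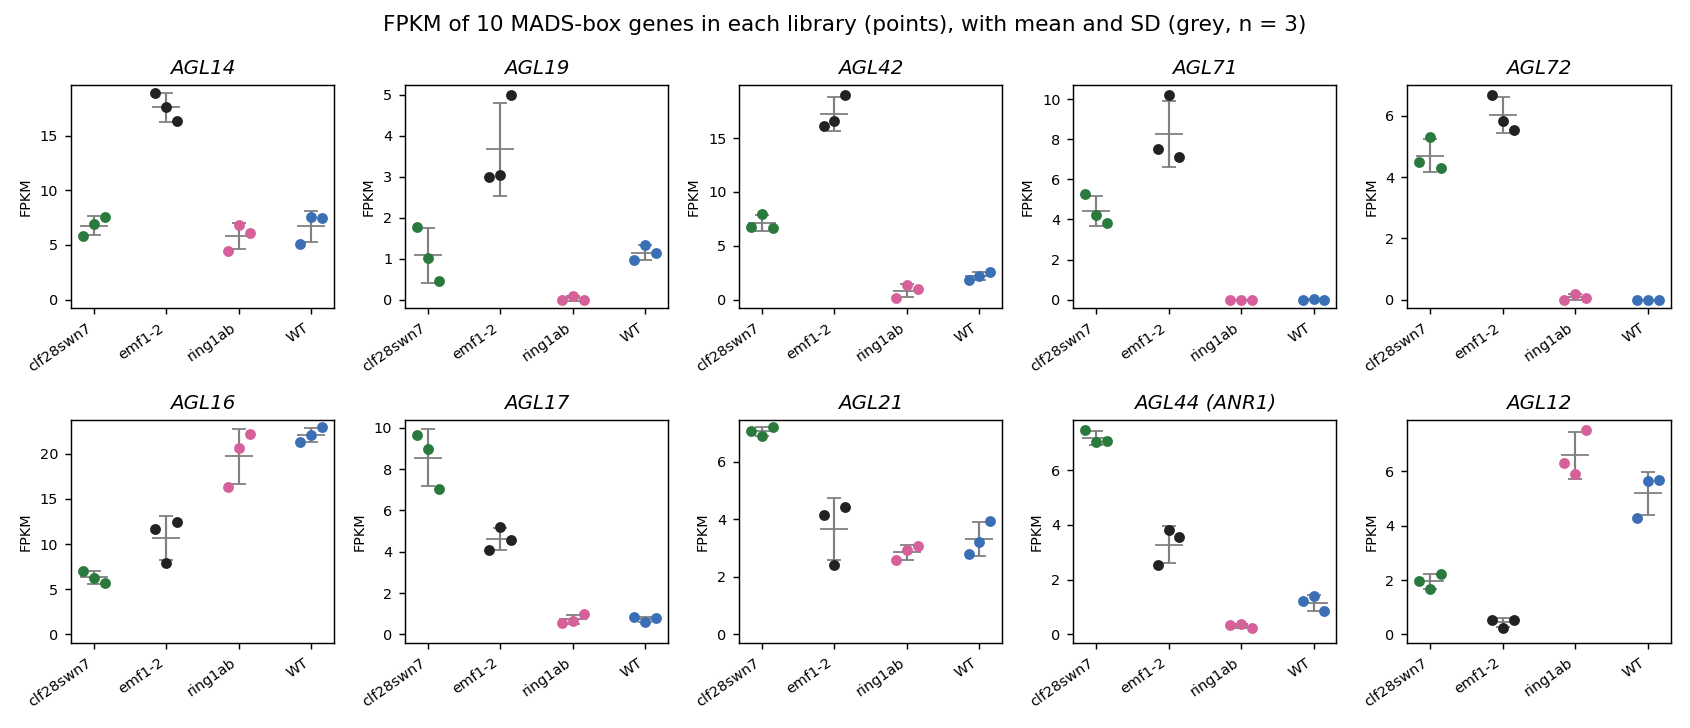
FPKM of each of the 10 genes (y axis, linear, one scale per panel) in the 3 libraries of clf28swn7, emf1-2, ring1ab and WT (points), with mean and SD in grey. AGL71 and AGL72 lie at or near 0 in ring1ab and WT and between 3.81 and 10.2 FPKM in the other libraries, whereas AGL16 and AGL12 lie lowest in clf28swn7 and in emf1-2.

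AGL71 and AGL72 are neighbours on chromosome 5 (AT5G51870 and AT5G51860) that lie in tandem on the minus strand (TAIR10.1, 21085462 to 21088414 and 21081844 to 21084427), with 1034 bases between them. Both proteins are known as close relatives of SOC1 that promote flowering. The windows of 250 bases before the annotated starts are printed because these genes changed together. Capitals mark matches to GAGAGA and AAACCCTA, motifs known from Polycomb response elements of Arabidopsis, which were searched on both strands together with the CArG box, the element that MADS-box proteins bind.

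AGL71 (chr5:21088415-21088664, minus strand): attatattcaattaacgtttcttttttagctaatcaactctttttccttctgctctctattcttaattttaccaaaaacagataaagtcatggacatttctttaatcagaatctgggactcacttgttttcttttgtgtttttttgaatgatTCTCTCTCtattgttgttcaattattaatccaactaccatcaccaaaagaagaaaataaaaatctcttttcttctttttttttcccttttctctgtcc
AGL72 (chr5:21084428-21084677, minus strand): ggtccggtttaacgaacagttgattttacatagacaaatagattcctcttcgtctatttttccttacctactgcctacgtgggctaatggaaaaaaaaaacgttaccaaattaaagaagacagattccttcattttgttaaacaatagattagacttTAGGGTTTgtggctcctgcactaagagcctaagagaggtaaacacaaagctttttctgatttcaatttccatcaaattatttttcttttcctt

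The AGL71 window held 2 overlapping matches to GAGAGA, both on the opposite strand, and 20.58% of the 27443 windows before protein-coding genes held at least 1. The AGL72 window held 1 match to AAACCCTA, also on the opposite strand, which 4.49% of all windows held. Windows of the other 8 members held neither motif, and the CArG box, present in 2.52% of all windows, was in none of the 10. A match of this kind describes the letters of the window and not a bound site.

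AGL71 had 5.25, 4.22 and 3.81 FPKM in the clf28swn7 libraries and 7.52, 10.2 and 7.14 in those labelled emf1-2, was listed at 0 in the 3 ring1ab libraries, and had 0, 0.047 and 0 FPKM in WT. The one WT value above 0 is worth an estimated 1.15 fragments, against 66.1 to 89.9 fragments in clf28swn7 and 175 to 233 in emf1-2. On the log2(FPKM + 1) scale AGL71 was 2.41 ± 0.12 higher in clf28swn7 than in WT (limma adjusted p = 1.71e-08) and 3.18 ± 0.12 higher in emf1-2 (limma adjusted p = 3.2e-09). Since WT libraries are listed at 0, these differences depend on the pseudocount and no fold is given.

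AGL72 had 4.5, 5.32 and 4.28 FPKM in clf28swn7 and 6.67, 5.84 and 5.53 in emf1-2, against 0, 0.178 and 0.0669 in ring1ab and 0 in each WT library. The highest ring1ab value is worth an estimated 3.03 fragments, and clf28swn7 and emf1-2 libraries held between 48.3 and 103. Levels were higher by 2.51 ± 0.09 in clf28swn7 and by 2.81 ± 0.09 in emf1-2 on the log2(FPKM + 1) scale than in WT (limma adjusted p = 1.58e-09 and 1.07e-09). Both genes thus lay above every ring1ab and WT library in every library of clf28swn7 and emf1-2, and in ring1ab neither differed from WT by more than the spread (limma adjusted p = 0.906 for AGL71 and 0.382 for AGL72). The flanking genes, chosen by position after the values had been seen, did not share this pattern. TRM24, 211 bases beyond AGL72, had 6.08 to 8.48 FPKM in clf28swn7, 3.14 to 5.43 in emf1-2 and 2.9 to 3.93 in ring1ab, against 0.628 to 1.06 in WT, and was called higher in the 3 mutants. AT5G51880, 968 bases beyond AGL71, had log2 fold changes of -0.40, -0.06 and -0.24 and was not called in any of them.

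AGL42 (FOREVER YOUNG FLOWER, AT5G62165, chr5:24964646-24968607, plus strand) is known for promoting flowering with AGL71 and AGL72 and for delaying senescence and abscission of floral organs. It had 6.77, 7.97 and 6.64 FPKM in clf28swn7, 16.1, 16.6 and 19.0 in emf1-2, 0.185, 1.38 and 0.975 in ring1ab, and 1.87, 2.2 and 2.58 in WT. The 4 genotypes did not overlap, with emf1-2 highest, clf28swn7 next, then WT, and ring1ab lowest. The mean FPKM was 3.21 times that of WT in clf28swn7 (log2 fold change 1.34 ± 0.21, limma adjusted p = 0.000139) and 7.76 times in emf1-2 (2.50 ± 0.21, limma adjusted p = 9.68e-07). In ring1ab the log2 fold change was -0.85 ± 0.21 (limma adjusted p = 0.00799), short of the threshold of 1. It passed that threshold with a pseudocount of 0.1 (-1.58), after rescaling to TPM (-1.02) and without ring1ab replicate 2 (-1.07), which was the highest of the 3.

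AGL14 (AT4G11880, chr4:7142922-7147391, plus strand) promotes flowering and acts in the stem cell region of the root, where it is known to regulate PIN auxin transporters. It had 5.85, 6.91 and 7.53 FPKM in clf28swn7, 18.9, 17.6 and 16.3 in the libraries labelled emf1-2, 4.48, 6.84 and 6.1 in ring1ab, and 5.09, 7.6 and 7.5 in WT. The emf1-2 libraries stood apart, and the libraries of the other 3 genotypes overlapped. Its mean FPKM in emf1-2 was 2.61 times that of WT (log2 fold change 1.28 ± 0.16, limma adjusted p = 2.67e-05) and 2.6 times that of clf28swn7 (1.26 ± 0.16, limma adjusted p = 6.26e-05). In clf28swn7 the log2 fold change against WT was 0.02 ± 0.16 (limma adjusted p = 0.927).

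AGL19 (AT4G22950, chr4:12023824-12028004, minus strand) is a floral activator that responds to long cold and is known as a target of PRC2 with CLF. It had 1.78, 1.01 and 0.451 FPKM in clf28swn7, 3.0, 3.04 and 4.99 in emf1-2, 0, 0.101 and 0 in ring1ab, and 0.978, 1.34 and 1.13 in WT. The clf28swn7 libraries spread on both sides of WT, those labelled emf1-2 lay above every other library, and those labelled ring1ab lay below every other library with at most an estimated 2.69 fragments. AGL19 was higher in emf1-2 than in WT by a log2 fold change of 1.1 ± 0.21 (limma adjusted p = 0.000755) and higher than in clf28swn7 by 1.19 ± 0.21 (limma adjusted p = 0.000697). It was lower in ring1ab than in WT (-1.06 ± 0.21, limma adjusted p = 0.00285), and in clf28swn7 it was at -0.10 ± 0.21 (limma adjusted p = 0.705). These calls lie near the fold threshold: the one in emf1-2 was lost without emf1-2 replicate 3 (0.91) and with median-of-ratios scaling (0.96), the one against clf28swn7 without clf28swn7 replicate 3 (0.96), and the one in ring1ab without WT replicate 2 (-0.99).

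SOC1 (AT2G45660), which gives the subfamily its name and integrates several flowering pathways, was not called in any of the mutants. It had 10.6, 8.25 and 9.16 FPKM in clf28swn7, 12.2, 11.4 and 13.3 in emf1-2, 14, 10.2 and 12.4 in ring1ab, and 14.5, 13.8 and 19.2 in WT. Its log2 fold changes against WT were -0.70, -0.33 and -0.35. The SOC1 values of clf28swn7 and emf1-2 lay below every WT library, though short of the threshold. Relatives of SOC1 thus made up more of the subfamily's summed FPKM in these 2 mutants, where they rose and SOC1 itself was lower. SOC1 held between 24.5% and 30.5% of the sum in clf28swn7 libraries and between 17.6% and 20.1% in emf1-2, against 54.5% to 75.0% in ring1ab and 55.3% to 64.6% in WT. The sum over the 6 genes was 33.4 ± 1.47 FPKM in clf28swn7, 65 ± 1.09 in emf1-2, 19.0 ± 0.52 in ring1ab and 26 ± 4.05 in WT (SD, n = 3 each).

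**Figure D2:**
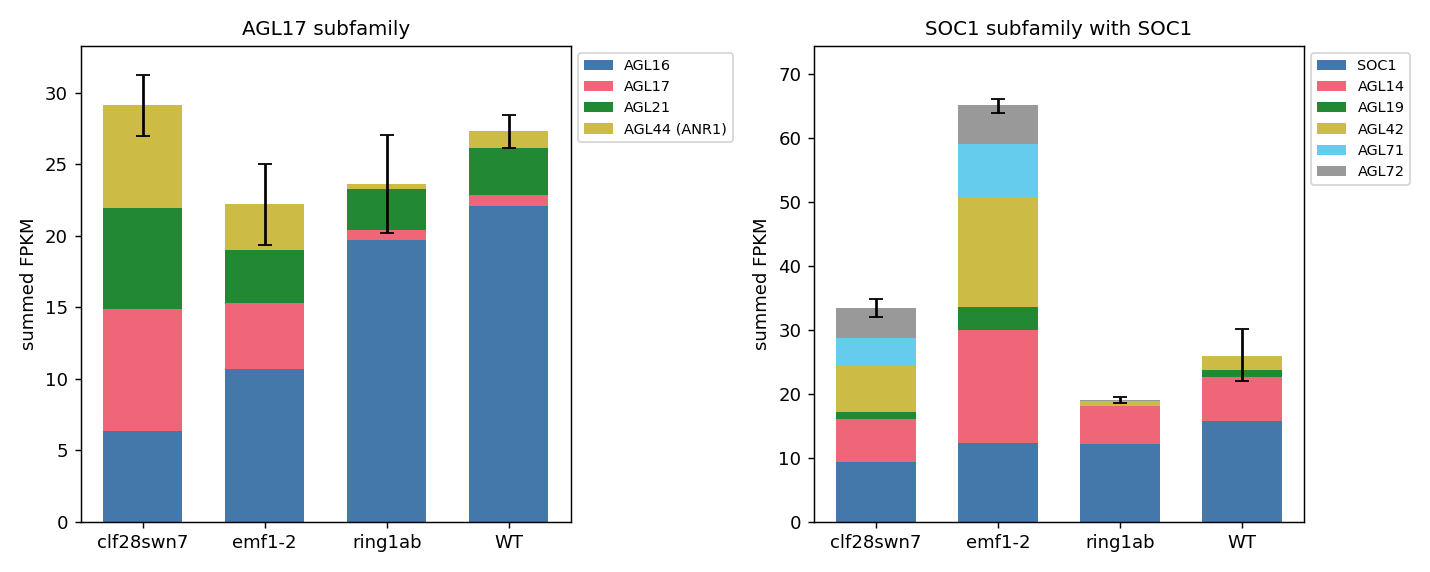
Mean FPKM of each gene, stacked, for the AGL17 subfamily (left) and for the SOC1 subfamily with SOC1 (right) in clf28swn7, emf1-2, ring1ab and WT, with the SD of the sum over 3 libraries as a black bar. AGL16 makes up 80.9% of the left sum in WT and 21.6% in clf28swn7, and the right sum is highest in emf1-2 at 65 FPKM.

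In the AGL17 subfamily both the sum and its makeup were compared. The sum was 29.1 ± 2.13 FPKM in clf28swn7, 22.2 ± 2.83 in emf1-2, 23.6 ± 3.43 in ring1ab and 27.3 ± 1.13 in WT, with libraries at 27 to 31.3 in clf28swn7, 19.3 to 24.9 in emf1-2, 19.8 to 26.4 in ring1ab and 26.1 to 28.4 in WT. The clf28swn7 and ring1ab libraries each overlapped those of WT, whereas the emf1-2 libraries lay below WT and below clf28swn7. AGL16 held 20.9% to 22.5% of the sum in clf28swn7 and 40.9% to 52.1% in emf1-2, against 82.4% to 83.8% in ring1ab and 80.5% to 81.5% in WT. In clf28swn7 the 4 genes were present at similar levels, between 21.6% (AGL16) and 29.3% (AGL17) of the sum on average.

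AGL16 (AT3G57230, chr3:21177282-21181026, plus strand) is known for delaying flowering with SVP and FLC and for stomatal development in leaves, where its transcript is cut through the microRNA miR824. The mature microRNA and its best match in the members are printed to show how AGL16 is set apart from its relatives. In the microRNA, encoded on chromosome 4 (chr4:12625128-12625148, plus strand), capitals mark the seed, bases 2 to 8. In the site, which lies in exon 7 of AGL16 after the stop codon (chr3:21180537-21180557, plus strand), the capital marks the 1 base that does not complete a Watson-Crick pair.

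miR824: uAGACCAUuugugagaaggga
AGL16 site: tcTcttctcacaaatggtcta

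The best ungapped match in any other member, in AGL19, had 6 mismatches, and SOC1 had 9. AGL16 had 7.05, 6.24 and 5.64 FPKM in clf28swn7, 11.7, 7.89 and 12.4 in emf1-2, 16.3, 20.6 and 22.2 in ring1ab, and 21.3, 22.1 and 22.9 in WT. The clf28swn7 and emf1-2 libraries lay below every ring1ab and WT library, with clf28swn7 lowest. The log2 fold change against WT was -1.66 ± 0.16 in clf28swn7 (limma adjusted p = 2.36e-06) and -1.01 ± 0.16 in emf1-2 (limma adjusted p = 0.000133). The call in emf1-2 was lost without emf1-2 replicate 2 (-0.82), without WT replicate 3 (-0.98) and after rescaling to TPM (-0.98). The precursor gene MIR824A, named after its values had been seen, had 6.41, 5.41 and 4.52 FPKM in clf28swn7 against 1.79, 1.49 and 1.78 in WT (log2 fold change 1.26 ± 0.13, limma adjusted p = 5.41e-06), and its log2 fold changes were 0.39 in emf1-2 and 0.54 in ring1ab. MIR824A overlaps AT4G24413 on the other strand, and since the use of strand was not stated, its reads cannot be told apart from those of that gene. The part of the microRNA in the level of AGL16 was not tested.

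AGL17 (AT2G22630, chr2:9618207-9622163, plus strand) is a root-expressed gene that also promotes flowering. It had 9.67, 8.96 and 7.05 FPKM in clf28swn7, 4.08, 5.18 and 4.58 in emf1-2, 0.569, 0.659 and 0.987 in ring1ab, and 0.821, 0.594 and 0.773 in WT. Levels in ring1ab and WT overlapped, emf1-2 lay above both, and clf28swn7 lay above emf1-2. The mean FPKM was 11.7 times that of WT in clf28swn7 (log2 fold change 2.46 ± 0.13, limma adjusted p = 1.84e-08) and 6.32 times in emf1-2 (1.70 ± 0.13, limma adjusted p = 4.18e-07).

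ANR1 (AGL44, AT2G14210, chr2:6018558-6023863, plus strand) is known for lateral root growth in nitrate-rich soil. It had 7.48, 7.01 and 7.08 FPKM in clf28swn7, 2.52, 3.8 and 3.54 in emf1-2, 0.339, 0.381 and 0.24 in ring1ab, and 1.23, 1.42 and 0.838 in WT. The 4 genotypes did not overlap, in the order clf28swn7, emf1-2, WT and ring1ab, and each step of that order had a limma adjusted p of at most 0.00135. In clf28swn7 the mean FPKM was 6.18 times that of WT (log2 fold change 1.93 ± 0.13, limma adjusted p = 1.3e-07). In emf1-2 it was 2.82 times that of WT, and its log2 fold change of 0.98 ± 0.13 just missed the threshold of 1 (limma adjusted p = 3.31e-05), which it passed with a pseudocount of 0.1 (1.43), after rescaling to TPM (1.15) and without WT replicate 1 (1.01), WT replicate 2 (1.07) or emf1-2 replicate 1 (1.12). In ring1ab the log2 fold change was -0.71 ± 0.13 (limma adjusted p = 0.00135), with 0.275 times the mean FPKM of WT, and -1.58 with a pseudocount of 0.1.

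AGL21 (AT4G37940, chr4:17835217-17838969, minus strand), the closest relative of AGL17 by sequence, is known for lateral root growth and auxin accumulation. It had 7.06, 6.91 and 7.23 FPKM in clf28swn7, 4.15, 2.43 and 4.43 in emf1-2, 2.58, 2.93 and 3.06 in ring1ab, and 2.79, 3.22 and 3.94 in WT. The clf28swn7 libraries lay above the rest, which overlapped. The mean FPKM in clf28swn7 was 2.13 times that of WT, and the log2 fold change of 0.91 ± 0.16 (limma adjusted p = 0.000316) was not called, though it reached 1.08 with a pseudocount of 0.1 and 1.01 without WT replicate 3.

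AGL12 (AT1G71692, chr1:26952545-26955127, minus strand) was lower in both clf28swn7 and emf1-2, as AGL16 was. It had 1.96, 1.67 and 2.22 FPKM in clf28swn7, 0.539, 0.245 and 0.547 in emf1-2, 6.31, 5.9 and 7.54 in ring1ab, and 4.27, 5.64 and 5.67 in WT. The emf1-2 libraries were lowest and the clf28swn7 libraries lay between these and WT. AGL12 was at 0.376 times the mean FPKM of WT in clf28swn7 (log2 fold change -1.06 ± 0.13, limma adjusted p = 2.03e-05) and at 0.0854 times in emf1-2 (-2.10 ± 0.13, limma adjusted p = 9.32e-08), where libraries held an estimated 5.5 to 13.1 fragments. Without clf28swn7 replicate 2 its log2 fold change in clf28swn7 was -0.99. In ring1ab it was at 0.30 ± 0.13 (limma adjusted p = 0.0985). The next gene, AT1G71691, at a distance of 997 bases, had 32.9 to 47.4 FPKM in clf28swn7, 0.0348 to 0.224 in emf1-2 and 21.7 to 27.7 in ring1ab, against 0 to 0.0745 in WT, and so did not move with AGL12. This neighbour was chosen by position after the values had been seen.

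**Figure D3:**
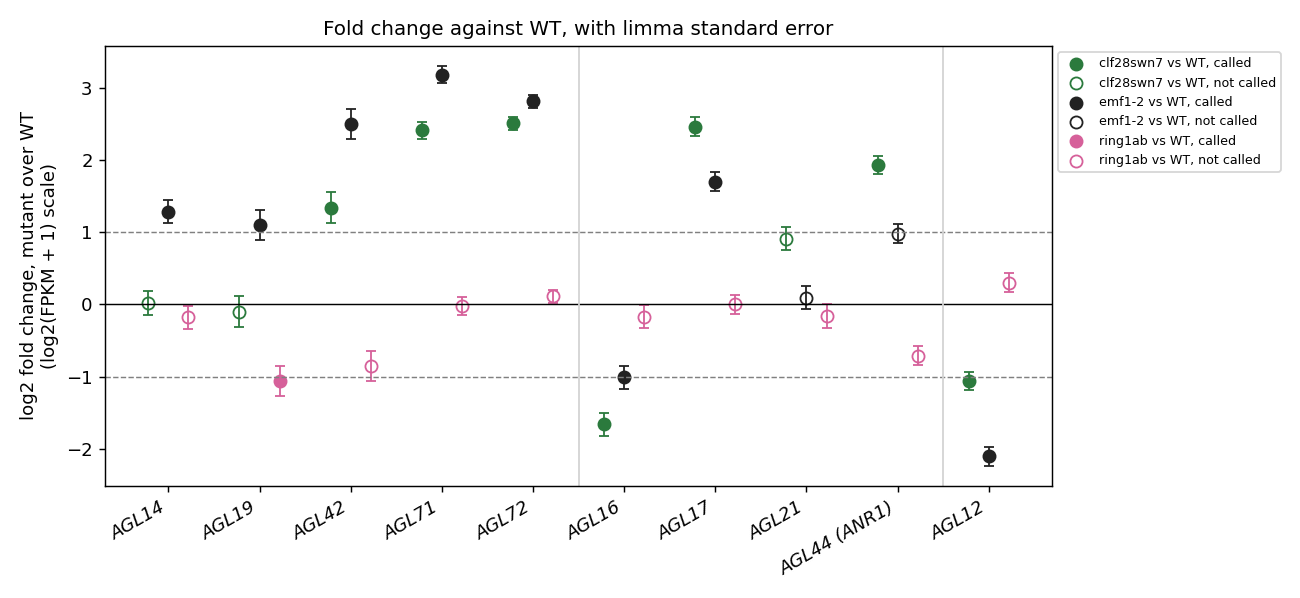
Log2 fold change over WT (y axis, log2(FPKM + 1) scale) of the 10 genes in clf28swn7, emf1-2 and ring1ab, with the limma standard error. Filled points were called and open points were not, dashed lines mark a fold change of 1 in size, and AGL19 is the only filled point of ring1ab, at -1.06.

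The mutants were also set directly against each other, since a call in one mutant and none in another does not show that they differ. For emf1-2 against clf28swn7, AGL14, AGL19 and AGL42 were higher in emf1-2, where 5.54% of all tested genes were, and AGL12 was lower, where 8.35% of all were. The libraries of the 2 mutants did not overlap for any of the 10 members, against 65.1% of all tested genes. The direction followed the subfamilies in part. The 5 SOC1 relatives had positive log2 fold changes, between 0.30 for AGL72 and 1.26 for AGL14, and neither AGL71 (0.77) nor AGL72 was called. In the AGL17 subfamily, AGL17 (-0.76), AGL21 (-0.82) and ANR1 (-0.95) had negative values and AGL16 (0.66) a positive one, all short of the threshold. The difference of AGL12 was -1.04 ± 0.13 (limma adjusted p = 5.52e-05), and it fell short of the threshold without emf1-2 replicate 2 (-0.93) or without clf28swn7 replicate 3 (-0.97). With median-of-ratios scaling the difference of ANR1 passed the threshold, at -1.05, and with a pseudocount of 0.1 it was -1.13.

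**Figure D4:**
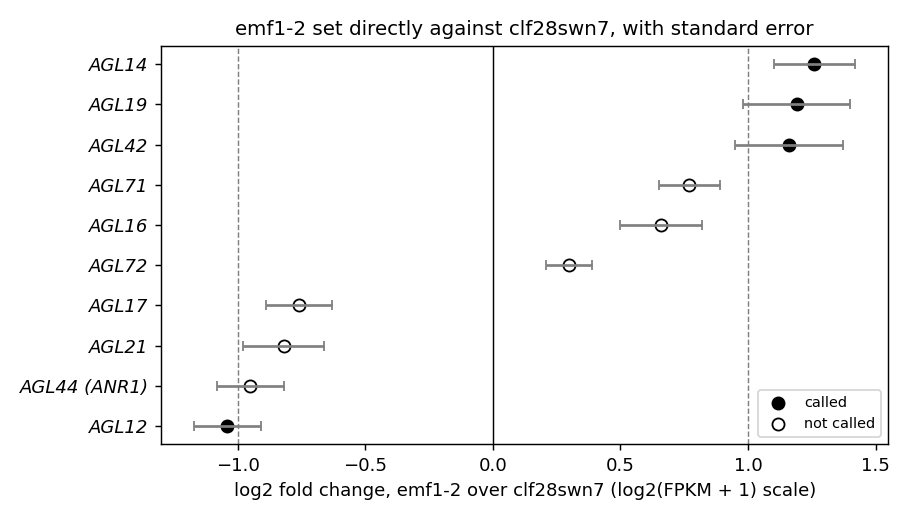
Log2 fold change of emf1-2 over clf28swn7 (x axis, log2(FPKM + 1) scale) for the 10 genes, with the limma standard error. The 5 SOC1 relatives and AGL16 lie above 0, and AGL17, AGL21, ANR1 and AGL12 lie below it, with filled points for the 4 called genes.

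In ring1ab set against clf28swn7, 6 members were lower (AGL17, AGL21, AGL42, ANR1, AGL71 and AGL72) beside 8.74% of all tested genes, and AGL12 and AGL16 were higher beside 11.9%. In ring1ab set against emf1-2, 7 were lower (AGL14, AGL17, AGL19, AGL42, ANR1, AGL71 and AGL72) beside 9.05% of all, and AGL12 was higher beside 14.1%. AGL17, AGL19, ANR1, AGL71 and AGL72 lay below 1 FPKM in every ring1ab library and reached the minimum only with libraries of other genotypes. Their calls as lower in ring1ab are thus partly set by the minimum. AGL19 in ring1ab against clf28swn7 was at -0.96 and passed the threshold with a pseudocount of 0.1 (-3.05), after rescaling to TPM (-1.23) and without ring1ab replicate 2 (-1.01) or clf28swn7 replicate 3 (-1.19). The largest of these differences was that of AGL42 in ring1ab against emf1-2, -3.36 ± 0.21 (limma adjusted p = 1.28e-07). The libraries did not overlap for 9 members in each of these comparisons, against 71.7% of all tested genes for ring1ab and clf28swn7 and 71.2% for ring1ab and emf1-2. Of the 30 steps between neighbouring genotypes in the order of levels of the 10 members, 10 had a limma adjusted p of 0.05 or more. They were mainly steps between ring1ab and WT, and also those between clf28swn7 and WT for AGL14 and AGL19 and between emf1-2 and WT for AGL21.

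The other 29 genes of the plant MIKC type were taken as a list for comparison, and 26 of them were tested. Among all tested genes, 15.1% were called higher and 12.3% lower in clf28swn7. For emf1-2 these shares were 13.7% and 12.4%, whereas ring1ab had 7.16% and 1.03%. In clf28swn7, 17 of the 26 were higher and 1 lower, with AP3, which specifies petals and stamens, at a log2 fold change of 6.82 and the floral repressor SVP at -1.93. In emf1-2, 17 were higher and 2 lower, again with AP3 (8.14) and SVP (-2.64) at the ends. In ring1ab, 12 were higher and 1 lower, with the petal and stamen gene PI at 2.72 and SEP4, which acts in flower meristems and organs, at -1.41. The median log2 fold change of this list was 2.75 in clf28swn7, 1.74 in emf1-2 and 0.31 in ring1ab, beside 1.12, 1.19 and -0.16 for the 10 members. Several genes of the list, AP3 and PI among them, lay below 1 FPKM in every WT library and reached the minimum only with mutant libraries. Calls and medians of the list are therefore partly set by the minimum, as are those of the members.

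Among 17 genes known to act upstream or downstream of the members, 15 were tested, beside the same shares of all tested genes. In clf28swn7, 5 were higher and 6 lower, with the floral repressor FLC at 4.02 and TEM1, a repressor of FT, at -2.28. In emf1-2, 3 were higher and 6 lower, with FLC at 2.44 and the auxin transporter PIN4, a known target of AGL14, at -2.96. PIN4 had 5.68 ± 1.68 FPKM in emf1-2, where AGL14 was high, against 49.9 ± 1.43 in WT (SD, n = 3 each). In ring1ab 4 were higher, led by RAV1 at 1.13. FT and LFY, flowering genes downstream of several members, did not reach the FPKM minimum and were at most at 1.27 and 0.371 FPKM in any library.

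Markers of root, leaf and embryo were measured beside the members, and their part in the results was not tested. The shares of all tested genes called in each mutant are those given above for the MIKC list. Of 20 root markers, 10 were lower and 4 higher in clf28swn7, 12 were lower in emf1-2 and 3 were higher in ring1ab, and none of the 20 was at 0 in all libraries of a genotype. Their summed FPKM was 2350 to 2590 in clf28swn7, 1270 to 1410 in emf1-2, 1840 to 2260 in ring1ab and 1230 to 1580 in WT. This sum was highest in clf28swn7, and the emf1-2 and WT libraries overlapped. PYK10, a glucosidase gene of the root, held 83.5% or more of it in every library, and its mean FPKM was 1.9 times that of WT in clf28swn7, 1.03 times in emf1-2 and 1.49 times in ring1ab, with no call. Without PYK10 clf28swn7 lay below WT instead of above it, and the sum was 133 to 146 in clf28swn7, 54.7 to 79.7 in emf1-2, 249 to 294 in ring1ab and 202 to 258 in WT. The level of AGL12, like the sum without PYK10 and unlike the full sum, was lower in clf28swn7 than in WT and lowest in emf1-2. Between ring1ab and WT the AGL12 difference had a limma adjusted p of 0.0985, and the sums without PYK10 overlapped. A link between AGL12 and these markers was not tested. Of the other members known from roots, AGL16 was called lower in emf1-2 than in WT (-1.01). AGL14 (1.28), AGL17 (1.70) and AGL42 (2.50) were called higher there, and AGL21 (0.09) and ANR1 (0.98) were not called. CASP1, a protein of the Casparian strip, had 5.91 ± 4.58 FPKM in emf1-2 and 64.3 ± 5.79 in WT. SCR, another of the root markers, went the other way. Its log2 fold change against WT was 1.22 in clf28swn7, which was called, and 0.56 in emf1-2, which was not. Of 15 leaf markers, 13 were lower in clf28swn7 and 14 in emf1-2, and their sum was 5350 to 6650 FPKM in clf28swn7, 5290 to 6880 in emf1-2, 26500 to 33200 in ring1ab and 37600 to 40900 in WT. AGL16 was low in the same 2 mutants. Of 8 embryo markers, 7 were tested and called higher in clf28swn7, 5 in emf1-2 and 6 in ring1ab, with sums of 22300 to 24600, 281 to 643, 7600 to 13800 and 1.19 to 7.03 FPKM in clf28swn7, emf1-2, ring1ab and WT. The 7 tested markers reached the FPKM minimum only with mutant libraries, so these calls are partly set by it. The seed regulator LEC1, the marker not tested, was listed at 0 in the libraries of emf1-2 and WT. Levels of AGL71 and AGL72 were near 0 in ring1ab and WT and higher in emf1-2 than in clf28swn7, and a link to the embryo markers was not tested.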

How the data were processed

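After quality control with FastQC, read pairs were aligned to TAIR10 by HISAT2. StringTie and ballgown then gave the FPKM per gene and library that the authors deposited. Versions, strand setting and filters are not given in the sources used here. The methods name a total RNA kit and the labels polyadenylated RNA. Replicates were not pooled.

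Values were taken to log2(FPKM + 1) and fitted with default settings of limma 3.58.1 (R 4.3.3), with all 12 libraries of the 4 genotypes in one fit without a block. The tool and the thresholds for fold change and p are those of the study's methods. A gene entered the two-sided tests if it reached 1 FPKM in 3 or more libraries. No scaling between libraries was added. Over the tested genes, the median difference from WT was 0.07 in clf28swn7, 0.19 in emf1-2 and 0.04 in ring1ab, and with median-of-ratios scaling 0.01, 0.02 and -0.01. The fit was also run on simulated data, with changes placed only in genes above a set WT level. That run does not cover genes low in WT, such as AGL71 and AGL72. Fold changes of genes with a low FPKM are understated on this scale.

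Depth was estimated from the densest value of FPKM times length among 8475 genes with 1 exon, 1 transcript and more than 300 bases, within 1% on either side, and fragments of a member as FPKM times exon length and depth. Such estimates cover counting only. Sequences and gene models came from RefSeq's TAIR10.1 assembly, read with Python 3.11.15 and compared with Biopython 1.88; pandas 2.3.3 and matplotlib 3.10.9 were used for tables and plots. The members, lists and tests were chosen with earlier results of these data known. Named beside the members were SOC1, the mutated genes, in each list and comparison with WT the called genes with the largest and the smallest fold change, and the 2 genes nearest in pattern to the 3 most variable members. Alternatives were a pseudocount of 0.1, no minimum or one of 0.1 FPKM, adjusted p-values, fits of 2 genotypes, a block for the replicate number, eBayes with trend and robust, scaling by median of ratios, TPM, and leaving out each library.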

Additional observations from a re-analysis of the deposited data

How the results depend on the processing

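No member changed direction with a call under any alternative. Counts of members were within 1.5 times their values under most alternatives. The 2 members lower in emf1-2 than in WT became 1 after rescaling to TPM. The 1 member lower in ring1ab than in WT became 3 with a pseudocount of 0.1, 2 with TPM and 0 in a fit of the 2 genotypes alone, where AGL19 no longer reached the FPKM minimum. The 1 member lower in emf1-2 than in clf28swn7 became 2 with a pseudocount of 0.1 and 2 with median-of-ratios scaling. Leaving out 1 library at a time gave 1 to 2 members lower in clf28swn7 than in WT (1 without clf28swn7 replicate 2), 1 to 2 lower in emf1-2 than in WT (1 without WT replicate 3 or emf1-2 replicate 2), 0 to 2 lower in ring1ab than in WT (0 without WT replicate 2, 2 without ring1ab replicate 2), and 0 to 1 lower in emf1-2 than in clf28swn7 (0 without clf28swn7 replicate 3). Of 720 single fold changes with a library left out, 8 lost and 8 gained a call.

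With the replicate number as a block, the members called against WT numbered 5 higher and 2 lower for clf28swn7, 6 higher and 2 lower for emf1-2, and 0 higher and 1 lower for ring1ab, and none of the 60 single calls changed. The correlation of deviations between same-numbered libraries lay between -0.142 and 0.078 over 18 pairs, so the numbers were not taken to pair the samples. The labels do not say that libraries of one number were grown together, and p-values measure the spread between these samples. Members under about 1 FPKM, such as AGL19 in ring1ab, rest on few estimated fragments, and their fold changes move most with the pseudocount.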

Other observations

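The pattern over the 12 libraries was compared between members and the other 21226 tested genes, as the Euclidean distance between values of log2(FPKM + 1) centred on each gene's mean. The 3 members with the widest range of genotype means were AGL42, AGL71 and AGL72, and the distances are a description over 12 libraries that share 4 genotypes. AGL71 was nearest to AT2G16630 (distance 0.48, where the median over all genes was 4.91) and to the glycosyltransferase gene UGT87A2 (0.53). AT2G16630 had 69.6 to 80.8 FPKM in clf28swn7, 119 to 125 in emf1-2 and 12.3 to 13.2 in ring1ab, against 12.2 to 13.3 in WT. AGL72 was nearest to PMAT1 (0.54) and AT1G30170 (0.61). AT1G30170 had 4.28 to 5.16 FPKM in clf28swn7, 6.11 to 8.66 in emf1-2 and 0.194 to 0.484 in ring1ab, and was listed at 0 in the 3 WT libraries. AGL42 was nearest to the transcription factor gene MYB112 (1.08) and the glycosyltransferase gene UGT76E11 (1.12). MYB112 had 3.57 to 5.34 FPKM in clf28swn7, 9.94 to 16.4 in emf1-2 and 0.234 to 0.41 in ring1ab, against 0.817 to 0.987 in WT, and so shared with AGL42 the order emf1-2, clf28swn7, WT and ring1ab.

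The nearest protein-coding genes on both sides of the members, 18 in all without the members themselves, were read as well. Of the 14 that were tested, 3 were higher and 1 lower in clf28swn7, beside 15.1% and 12.3% of all tested genes. In emf1-2, 3 were higher and 1 lower, beside 13.7% and 12.4%, and in ring1ab 3 were higher, beside 7.16%. BG3, the neighbour of AGL16, was higher in emf1-2 by a log2 fold change of 3.33 with a wide spread of 4.32 to 31.5 FPKM, and SHM1, a photorespiratory enzyme gene 199 bases from AGL21, fell to 72.4 to 87.0 FPKM in clf28swn7, against 515 to 556 in WT.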
